A study of Mus musculus with 12 samples.

Results

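The response of the mouse left ventricle to infarction was measured in hearts without a recombinase by comparing 3 libraries taken after the left anterior descending artery had been tied off for good (myocardial infarction, MI) with 3 libraries taken after sham surgery. These 6 libraries were chosen by their labels, Cre negative with MI surgery and Cre negative with sham surgery, out of 12 RNA sequencing libraries in the series. The other 6 came from Cre-positive siblings given the same operations. All mice carried floxed Yap alleles. In Cre-negative mice the Periostin locus was wildtype, so they had no MerCreMer recombinase. Cre-positive siblings had a copy of MerCreMer driven by the endogenous Periostin promoter, which is active in activated fibroblasts. Every animal, sham and Cre negative included, ate a diet with tamoxifen citrate from the time of surgery, was 6 to 10 weeks old and gave its left ventricle 4 days after the operation. A floxed allele that is never recombined and a drug that both groups receive are shared by the samples compared, so their own effects cannot be seen here. The labels number the samples of a group 1 to 3 and do not say how the animals were assigned or whether any were pooled. The p-values therefore measure only the spread between samples, estimated over all 4 groups of 3 libraries, Cre-positive ones included.

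After an artery is closed, the muscle it supplied dies, and innate immune cells enter to remove the debris while fibroblasts multiply and lay down a scar. The surviving muscle works at higher load, changes its mix of contractile protein isoforms and its fuel use, and releases natriuretic peptides. After the first days, monocytes and macrophages outnumber the early neutrophils in mice, and dividing cells in the wound are common. The sampled tissue was the whole left ventricle, so infarct, border and remote muscle were read together, and fewer cells of a type cannot be told apart from less RNA per cell.

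Libraries held 13823268 to 15176286 expected counts after MI and 10257675 to 11726159 after sham surgery, so each MI library was deeper than each sham library, and 3 counts corresponded to 0.198 to 0.292 per 1000000 counts of a library (CPM, which for the levels of genes also carries the TMM scaling factor). Of 17471 genes listed, 13678 had enough counts to be tested. Within the 6 libraries the first principal component held 82.9% of the variance, with MI at -72.1 to -58.2 and sham at 60.4 to 71.5. The second component, with 5.8%, set sham replicate 2 (-31.1) apart from sham replicate 1 (25.1), and Y-linked genes summed to 0.292 CPM in sham replicate 2, against 141 to 169 CPM in the other 5 Cre-negative libraries. Replicates were close for most genes: the median standard deviation of log2 CPM was 0.14 in MI and 0.15 in sham libraries.

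The tissue label fitted the markers. All 10 cardiomyocyte markers were read in every library, at a summed 94550 to 109900 CPM in sham and 39270 to 51140 CPM in MI libraries, and all 10 fell. The 12 monocyte and macrophage markers summed to 397 to 460 CPM in sham and 2512 to 2913 CPM in MI libraries, and all 12 rose. Fibroblast markers summed to 1820 to 2320 CPM in sham and 14810 to 16450 CPM in MI libraries, and 8 of 10 rose, 4 of them at least 2-fold (median 0.91). Most of that sum came from Col1a1, Col1a2 and Col3a1, at 5201 to 6109, 3389 to 3742 and 4917 to 5491 CPM after MI. Endothelial markers overlapped, at 1609 to 1924 CPM in sham and 1683 to 1900 CPM in MI libraries, with 6 of 20 higher and 5 lower. Smooth muscle and pericyte markers overlapped too, at 4920 to 5912 and 5129 to 5826 CPM. Among the contents that could come from neighbouring tissue, the 7 atrial markers were dominated by Nppa, which ventricles also make, while the atrial light chain gene Myl7 was at 0.116, 2.87 and 22.8 CPM in MI and 15.1, 8.09 and 29.3 CPM in sham libraries. Of 8 adipocyte markers 5 rose, each at least 2-fold, and 1 fell, with a median log2 fold change of 3.985. Their sum did not follow these rises and overlapped, at 558 to 847 CPM in MI and 645 to 949 CPM in sham libraries. The adipocyte genes Adipoq and Cfd rose, to 12.7 to 25.5 and 48.4 to 112 CPM, and were highest in MI replicate 1. The cardiomyocyte, macrophage and fibroblast sums moved with the surgery, and their part in the results below was not tested.

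Of the genes tested, 54.3% were called different between MI and sham hearts at an adjusted p under 0.05 (edgeR quasi-likelihood test, Benjamini-Hochberg adjustment), 29.9% higher and 24.4% lower. Those called and at least 2-fold higher were 17.2% of all genes, and those at least 2-fold lower were 5.36%. Such shares are the background for each group of genes described here. Rises were larger than falls: the median log2 fold change of a gene called higher was 1.18 and that of a gene called lower was -0.67, and 1134 genes were at least 4-fold higher against 30 at least 4-fold lower. Called and at least 16-fold different were 211 genes higher and 2 lower, Slc26a3 (1 read over the MI and 33 over the sham libraries) and Gm11758 (0 and 61 reads), both named after their values were seen. The split between higher and lower moved with the scaling: 55.1% of the calls were higher with TMM factors and 75.4% with library totals alone, which raised the median log2 fold change of all genes by 0.25. The plot of called members by gene list sets the counts against this background.

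**Figure D1:**
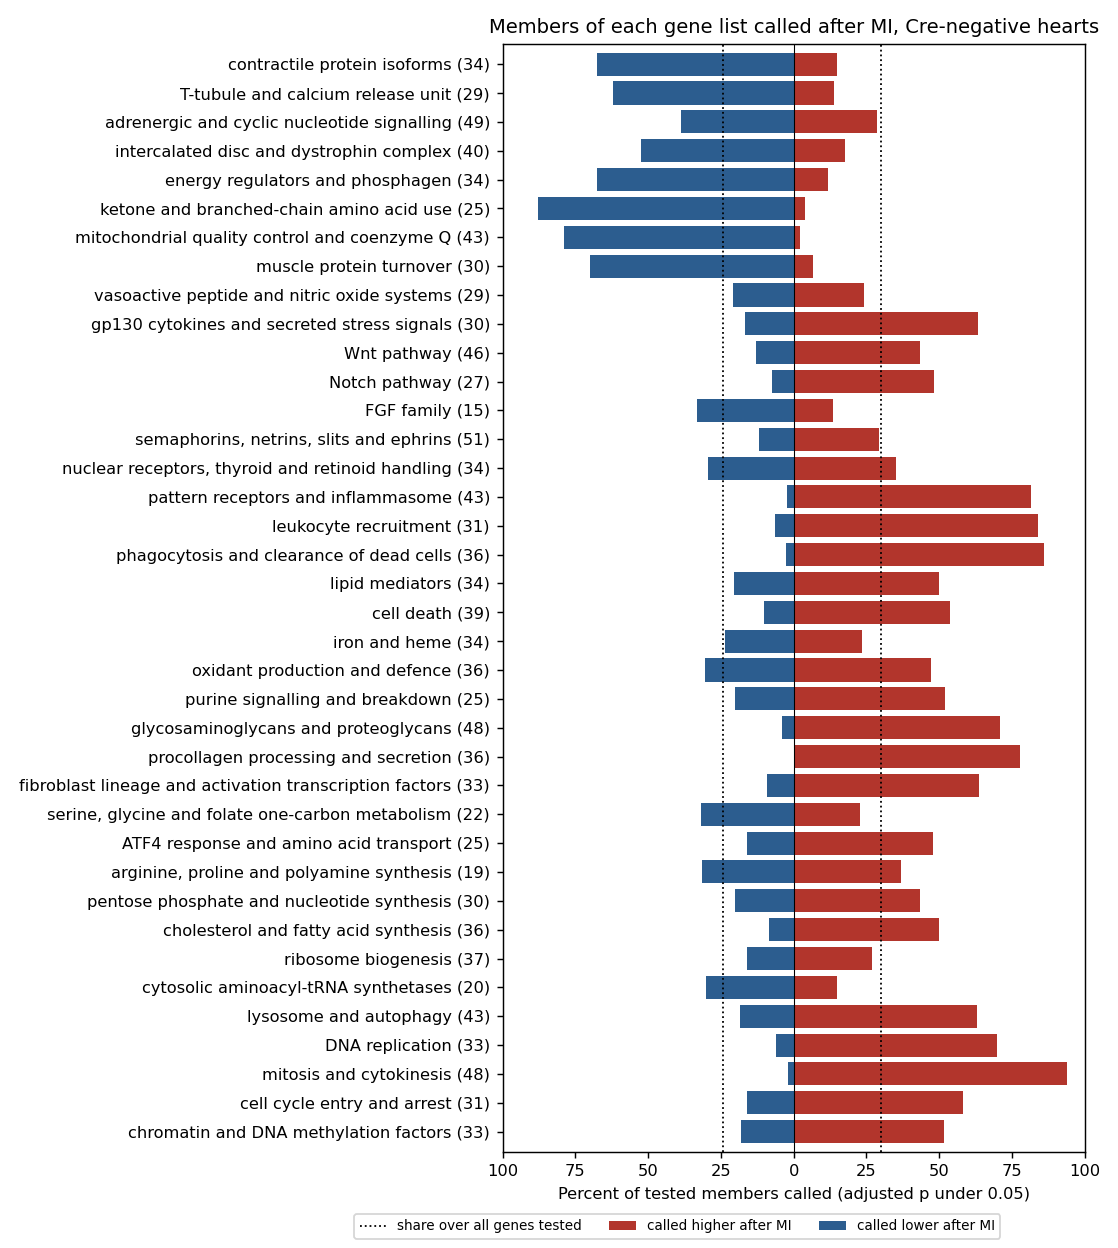
Percent of the tested members of each gene list (number tested in parentheses) called higher (red, right) or lower (blue, left) after MI in Cre-negative hearts, with dotted lines at the shares over all genes tested, 29.9% higher and 24.4% lower. Lists of muscle and mitochondrial genes extend mostly to the left, and lists of sensing, recruitment, clearance, matrix processing and cell division mostly to the right.

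Transcript abundance per length, as the deposited FPKM values give it, shifted from a few muscle genes to many others. The 15 called genes with the largest loss of FPKM took 18.7 to 19.9% of all FPKM in the sham libraries and 9.73 to 11.3% in the MI libraries. They were Myl2, Mb, Tnnt2, Myh6, Tnni3, Myl3, Slc25a4, Tpm1, Cox6a2, Atp2a2, Pln, Gm20594, Atp5b, Fabp3 and Cox7a1. Apart from Gm20594, which has a provisional name, these are genes of sarcomere, calcium handling, oxygen and fatty acid binding and ATP supply. The 15 with the largest gain rose from 0.837 to 0.922% to 4.32 to 4.85% of all FPKM. They were Nppa, the ferritin light chain gene Ftl1, Eef1a1, Actb, Sparc, Apoe, Clu, Col1a1, Tmsb4x, Lyz2, Col3a1, Bgn, Rpl41, Vim and Lgals1. Since these genes were picked for the size of their change, the shares are a description. Myl2, the ventricular regulatory light chain, was at 6555, 7104 and 7816 FPKM after MI and at 15330, 14410 and 15480 FPKM after sham surgery. Ftl1 was at 3069, 2425 and 2252 FPKM after MI and at 278, 354 and 302 FPKM after sham surgery, and neither gene overlapped between the groups.

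The contractile apparatus lost transcripts of its adult heart isoforms, while a small set of isoforms known from skeletal muscle, smooth muscle or all cells gained. Of 34 contractile genes tested, 23 fell and 5 rose (median log2 fold change -0.94, against 0.02 over all genes tested). The adult alpha myosin heavy chain gene Myh6 was at 13640, 17080 and 19520 CPM in the 3 MI libraries and at 47320, 39840 and 45410 CPM in the 3 sham libraries, a log2 fold change of -1.40 ± 0.37 (SE, n = 3 per group, adjusted p = 0.0065). Myh7, the beta chain that failing rodent hearts are known to use, was at 1669, 1021 and 872 CPM after MI and at 2578, 377 and 2938 CPM after sham surgery. The groups overlapped, and sham replicate 2 held less than any MI library. The minor heavy chain gene Myh7b had a log2 fold change of -1.81 ± 0.21 (adjusted p = 1.65e-05). Tnni3 and Tnnt2 (troponins I and T), Myl2 and Myl3 (light chains), and Mylk3 (the cardiac light chain kinase) fell by 0.94 to 1.39.

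The 5 that rose were Tpm2, Tpm3, Acta1, Myl1 and, outside the naming rule, Mybpc2. Tropomyosin gene Tpm2 was at 115, 97.7 and 122 CPM after MI and at 14.5, 21.6 and 13.4 CPM after sham surgery (2.75 ± 0.19, adjusted p = 3.73e-07). Tpm3 rose from 74.9, 87.2 and 77.4 CPM to 342, 263 and 290 CPM, while the main cardiac tropomyosin gene Tpm1 fell from 13670, 11800 and 12560 CPM to 7190, 7376 and 9072 CPM. The skeletal actin gene Acta1 stood at 432, 1027 and 870 CPM after MI and at 227, 69.9 and 207 CPM after sham surgery (2.21 ± 0.51, adjusted p = 0.00305). No MI library fell below any sham library for these 3 genes that rose. The cardiac actin gene Actc1 overlapped between groups (-0.24 ± 0.35, adjusted p = 0.592, and 0.00 with library totals alone). The ratio of Acta1 to Actc1, in FPKM within a library, was 0.0564, 0.0845 and 0.0652 after MI against 0.0208, 0.00548 and 0.0134 after sham surgery, whereas the ratio of Myh7 to Myh6 overlapped (0.0445 to 0.122 after MI, 0.00943 to 0.0646 after sham surgery). Fast skeletal troponin T, Tnnt3, also rose, from 0.493 to 0.799 CPM to 10.1 to 22.9 CPM, with MI replicate 2 the lowest of the MI libraries.

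Genes of the T-tubule and the calcium release unit, which couple the action potential to contraction, mostly fell. Of 29 tested, 18 fell and 4 rose (median -0.80). Atp2a2, the calcium pump of the sarcoplasmic reticulum, was at 5668, 7671 and 8207 CPM after MI and at 18430, 17300 and 18520 CPM after sham surgery (-1.33 ± 0.24, adjusted p = 0.000562). Kcnip2, a subunit of the transient outward potassium channel, fell by 1.91 ± 0.25, the L-type channel gene Cacna1c by 1.06 ± 0.13 and the tether gene Jph2, which holds the T-tubule to the reticulum, by 0.82 ± 0.14. Bin1, a membrane-bending protein of the T-tubule that many other cells make too, went the other way and was at 43.1, 38.3 and 39.8 CPM after MI against 7.43, 7.59 and 10.2 CPM after sham surgery (2.26 ± 0.20, adjusted p = 2.41e-06). The low genes Fkbp1b and Sypl2 rose to 3.31 to 4.58 and 1.75 to 2.94 CPM.

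At the intercalated disc and the dystrophin complex, which join cells to each other and to the matrix, 21 of 40 genes fell and 7 rose (median -0.48). The desmosome gene Dsp fell from 2319, 1602 and 1943 CPM to 973, 916 and 1014 CPM, and the catenin gene Ctnna3 by 1.08 ± 0.14 and the sarcoglycan gene Sgca by 1.01 ± 0.12 on the log2 scale. The actin-binding gene Xirp2 rose from 400, 384 and 376 CPM to 783, 884 and 1089 CPM, and the talin gene Tln1 by 0.71 ± 0.10. The intermediate filament gene Des overlapped between groups, at 3737 to 4447 and 3093 to 4165 CPM, and was called higher only with library totals alone (0.43, adjusted p = 0.0233). Leaving out MI replicate 2, MI replicate 3 or sham replicate 2 left 4 of this list higher.

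Adrenergic and cyclic nucleotide genes moved in both directions. Of 49 tested, 19 fell and 14 rose (median -0.19), and with library totals alone 13 fell and 21 rose. Over all genes tested 24.4% fell and 29.9% rose, so the share of rises in this list was near the background. Among receptors, the alpha-1A receptor gene Adra1a fell from 38.4, 24 and 32.2 CPM to 12.3, 10.9 and 10.1 CPM, while the beta-1 receptor gene Adrb1 was at 14.7 to 26.6 CPM after MI and 29.3 to 37.6 CPM after sham surgery and was not called (adjusted p = 0.174, against 0.0355 in a fit of the Cre-negative libraries alone and 0.0173 without Cre-positive sham replicate 2). Adenylyl cyclase genes moved apart: Adcy6, the main form in heart muscle, fell by 1.04 ± 0.13 and Adcy7, a form abundant in blood cells, rose by 1.98 ± 0.34. Phosphodiesterase genes likewise differed in sign, with Pde3a (-1.10 ± 0.18) and Pde4d (-1.12 ± 0.12) lower and Pde1a (1.54 ± 0.14) and Pde1b (2.33 ± 0.35) higher. Arrb2, which ends receptor signalling, rose by 1.94 ± 0.19.

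**Figure D2:**
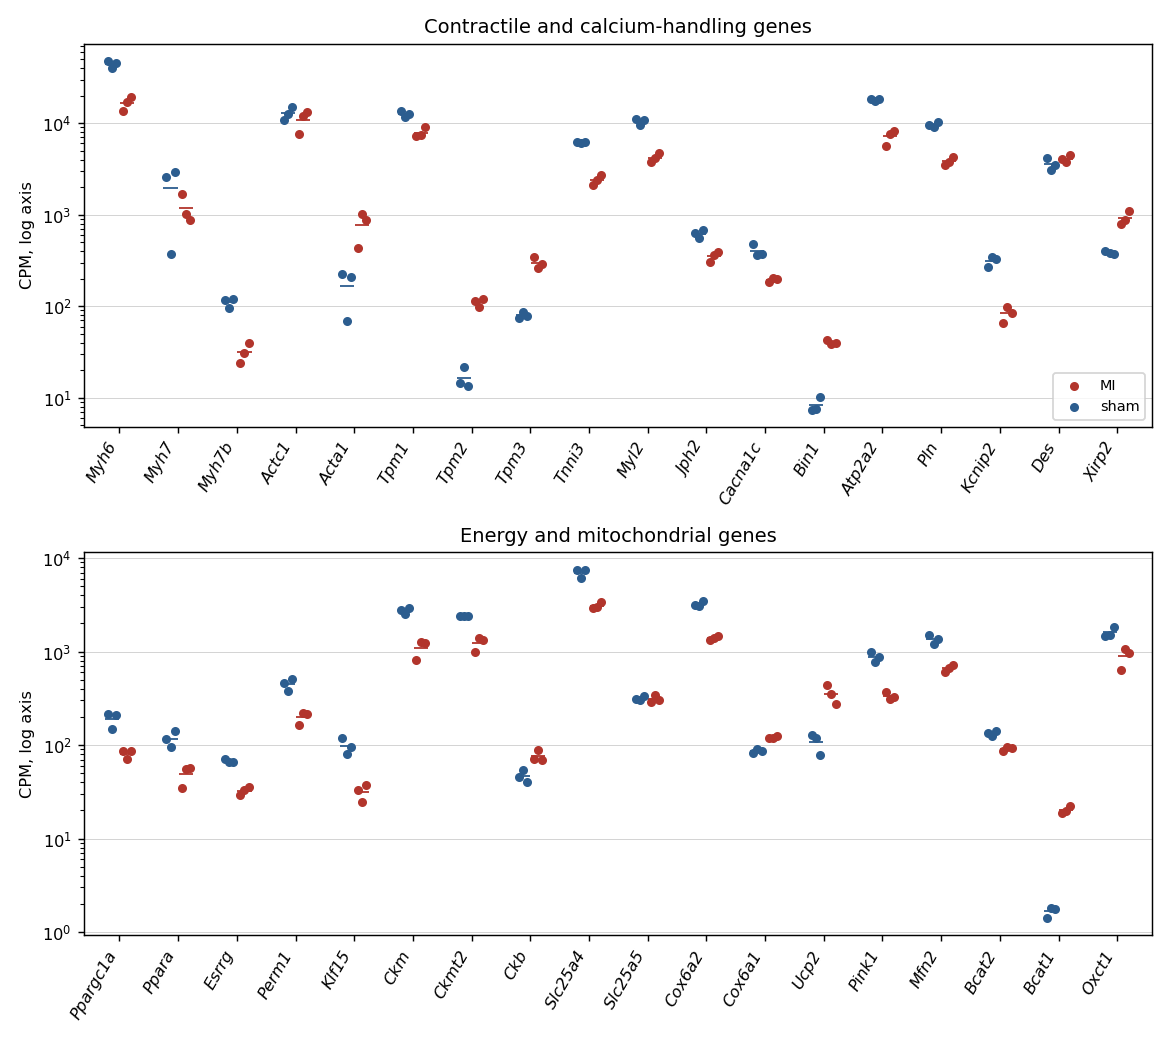
CPM on a log axis of 18 contractile and calcium-handling genes (top) and 18 energy and mitochondrial genes (bottom) in the 3 MI (red) and 3 sham (blue) Cre-negative libraries; each point is a library and the short line is the group mean. Myh6 and Atp2a2 are lower in every MI library, Tpm2, Bin1 and Bcat1 are higher in every MI library, and Myh7 in sham replicate 2 lies below all others.

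The regulators of energy supply fell with the muscle genes. Of 34 regulators and phosphagen genes 23 fell and 4 rose (median -0.85), with 2 higher when sham replicate 2 was left out and 8 with library totals alone. Esrrg, a nuclear receptor that drives mitochondrial genes, was at 29.0, 33.1 and 35.8 CPM after MI and at 71.7, 65.3 and 66.2 CPM after sham surgery (-1.05 ± 0.13, adjusted p = 2.32e-05). Ppara, the receptor for fatty acids, fell by 1.25 ± 0.20, the muscle cofactor gene Perm1 by 1.18 ± 0.14 and Klf15, a metabolic transcription factor, by 1.63 ± 0.17. Creatine kinase genes Ckm and Ckmt2, which buffer and carry phosphate energy in muscle, fell by 1.31 ± 0.25 and 0.96 ± 0.19. The brain-type creatine kinase gene Ckb was at 70.1, 88.5 and 68.6 CPM after MI and at 45.4, 53.5 and 40.2 CPM after sham surgery. The groups did not overlap, but Ckb was not called in the edgeR fit of all libraries (0.71 ± 0.35, adjusted p = 0.105). It was called in a fit of the 6 Cre-negative libraries alone (adjusted p = 0.00122) and without Cre-positive sham replicate 2 (adjusted p = 0.000626).

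Pairs of isoforms that differ between muscle and other cells changed their ratio in the same way. The FPKM ratio of Ckb to Ckm was 0.0833, 0.0666 and 0.0532 after MI and 0.0156, 0.0205 and 0.0131 after sham surgery. For the ATP exchangers of the inner membrane, Slc25a5 to Slc25a4, the ratio was 0.0844, 0.0981 and 0.0783 against 0.0356, 0.0433 and 0.0391. For the cytochrome oxidase subunits Cox6a1 (most tissues) and Cox6a2 (muscle) it was 0.118, 0.111 and 0.109 against 0.0340, 0.0378 and 0.0324. The ratios of all 3 pairs lay higher in each MI library than in any sham library. A ratio within a library shows unequal change only: the muscle forms Slc25a4 and Cox6a2 fell by 1.17 ± 0.14 and 1.21 ± 0.13, Cox6a1 rose by 0.49 ± 0.09, and Slc25a5 overlapped (-0.02 ± 0.10, and 0.23 with library totals alone). Ucp2, an inner membrane carrier common in immune cells, rose from 130, 118 and 77.4 CPM to 437, 352 and 272 CPM.

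**Figure D3:**
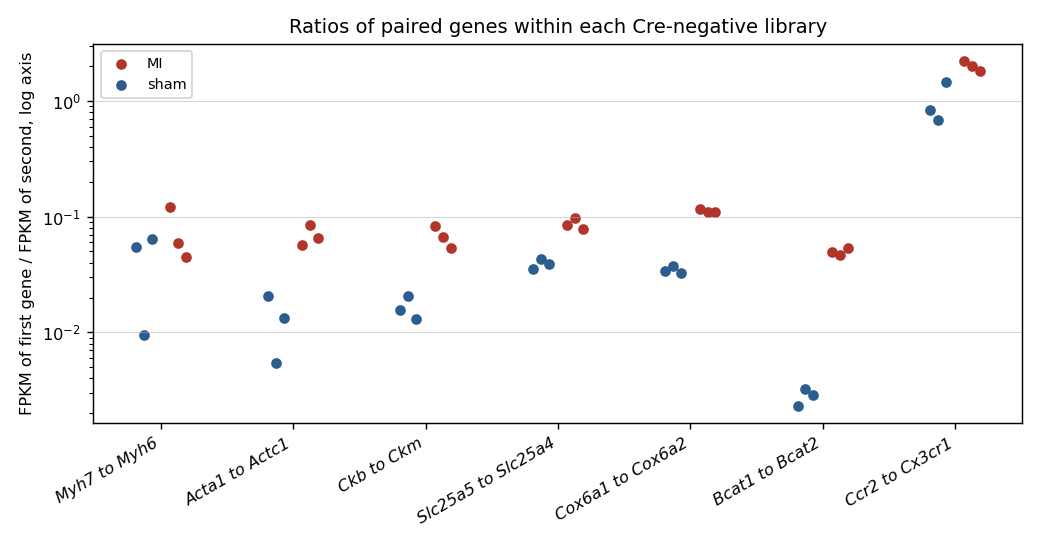
Ratio of the FPKM of 2 genes within each Cre-negative library on a log axis, MI in red and sham in blue, 3 points per group. Each pair except Myh7 to Myh6 is separated between groups, most widely Bcat1 to Bcat2.

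Ketone and branched-chain amino acid use showed the largest share of falls among the plotted lists. Of 25 genes 22 fell and 1 rose (median -1.06). The valine pathway gene Aldh6a1 was at 145, 146 and 134 CPM after MI and at 393, 337 and 350 CPM after sham surgery (-1.35 ± 0.10, adjusted p = 6.49e-07). Bckdhb, a subunit of the branched-chain ketoacid dehydrogenase, fell by 1.34 ± 0.13, its activating phosphatase gene Ppm1k by 1.30 ± 0.19 and the propionyl carboxylase gene Pcca by 1.24 ± 0.12. The single rise was that of Bcat1, the cytosolic branched-chain aminotransferase, from 1.41, 1.80 and 1.77 CPM to 19.0, 19.6 and 22.6 CPM (3.61 ± 0.28, adjusted p = 7.72e-07), while the mitochondrial form Bcat2 fell by 0.55 ± 0.12. The ketone enzyme gene Bdh1 (0.12 ± 0.62, and -0.61 without MI replicate 2) was not called and varied widely within groups, at 38.3, 159 and 68.0 CPM after MI.

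Quality control of mitochondria and coenzyme Q synthesis followed: 34 of 43 genes fell and 1, Coq8b, rose (median -0.72). Pink1, the kinase that marks damaged mitochondria, was at 373, 311 and 325 CPM after MI and at 977, 774 and 875 CPM after sham surgery (-1.38 ± 0.15, adjusted p = 1.31e-05). The fusion gene Mfn2 fell by 1.03 ± 0.12 and the cristae gene Chchd3 by 1.0 ± 0.09. The paralogs Coq8a and Coq8b, which assist coenzyme Q synthesis, had opposite signs, at -1.25 ± 0.13 and 0.86 ± 0.15.

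Muscle protein turnover genes fell in 21 of 30 cases and rose in 2 (median -0.84). The ubiquitin ligase genes Trim63 and Fbxo32, which break down muscle protein and rise in wasting skeletal muscle, were lower here: Trim63 was at 112, 99.7 and 105 CPM after MI and at 252, 230 and 253 CPM after sham surgery (-1.21 ± 0.12, adjusted p = 4.61e-06). Their regulator Foxo3 fell by 1.30 ± 0.16 and the ligase adaptor gene Asb14 by 1.72 ± 0.11. The calpain gene Capn2 and the small chaperone gene Hspb1 rose, by 0.87 ± 0.12 and 0.93 ± 0.14.

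Vasoactive peptides and nitric oxide are signals that hearts and vessels exchange. Of 29 genes of these systems 7 rose and 6 fell (median 0.06), both shares under those of all genes tested (29.9% and 24.4%), so the values are those of single members. The natriuretic peptide genes Nppa and Nppb, which muscle cells release when stretched, were at 2394, 2457 and 2953 CPM and at 306, 394 and 345 CPM after MI, against 485, 428 and 419 CPM and 101, 114 and 105 CPM after sham surgery. Corin, the protease that activates these peptides, fell by 1.17 ± 0.15 and their clearance receptor gene Npr3 by 1.23 ± 0.17. In the angiotensin system the converting enzyme gene Ace rose by 0.95 ± 0.19 and the receptor gene Agtr1a fell from 85.9, 81.5 and 75.5 CPM to 39.2, 29.8 and 35.8 CPM (-1.21 ± 0.13, adjusted p = 7.89e-06).

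Of 30 genes for gp130 cytokines and other secreted stress signals 19 rose and 5 fell (median 1.34). Among ligands of the gp130 receptor family, Il6 had 0 reads in all 3 sham libraries and 70 over the 3 MI libraries (0.534 to 2.12 CPM), at least 14.9-fold higher against a floor of 3 reads over the group. Lif was at 2.15, 3.56 and 3.20 CPM after MI and at 0.0941, 0.200 and 0.986 CPM after sham surgery, Il11 overlapped (1.69 to 2.67 and 0.998 to 1.98 CPM, adjusted p = 0.13, 0.0457 without sham replicate 1), and cardiotrophin gene Ctf1 fell by 1.26 ± 0.16. On the receptor side the oncostatin receptor gene Osmr rose by 1.21 ± 0.14 and the Lif receptor gene Lifr fell by 0.66 ± 0.11. Socs3, the feedback inhibitor that this pathway switches on, rose from 4.23, 6.79 and 6.80 CPM to 31.9, 35.8 and 31.5 CPM (2.48 ± 0.23, adjusted p = 2.96e-06). Hgf, a growth factor for epithelium and vessels, rose by 4.14 ± 0.39, the activin subunit gene Inhba by 3.08 ± 0.39, and both follistatin-like genes Fstl1 and Fstl3 by 2.99 ± 0.26 and 2.53 ± 0.49. Fstl1 was at 1089, 962 and 1042 CPM after MI and at 123, 128 and 138 CPM after sham surgery.

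Of 46 Wnt genes 20 rose and 6 fell (median 0.46). The ligand genes Wnt5a, Wnt5b and Wnt11 were not called in the fit of all libraries (Wnt5a was lower in the fit of the Cre-negative libraries alone, adjusted p = 0.0237, and without Cre-positive sham replicate 2, adjusted p = 0.00936). The receptor genes Fzd1, Fzd2 and Ror2 rose by 1.72 ± 0.15, 1.69 ± 0.22 and 2.52 ± 0.19, and Fzd4, the endothelial receptor, fell by 0.54 ± 0.11. The secreted antagonist genes Sfrp1, Sfrp2 and Frzb were at 98.1 to 121, 55.4 to 61.3 and 25.4 to 28.5 CPM after MI and at 21.3 to 23.1, 4.39 to 7.71 and 6.19 to 6.68 CPM after sham surgery. Axin2, a common transcriptional target of the beta-catenin branch, was at 4.35, 5.25 and 6.2 CPM after MI and at 5.55, 6.69 and 7.88 CPM after sham surgery and was not called (-0.35 ± 0.25, adjusted p = 0.265).

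Of 27 Notch genes 13 rose and 2 fell (median 0.31; 1 fell without MI replicate 1 or sham replicate 1), with the ligand gene Jag1 (0.84 ± 0.13) and the processing protease gene Adam10 (0.92 ± 0.13) higher. Target genes moved apart: Hey2 was lower (-1.15 ± 0.14) and Heyl higher (0.63 ± 0.14, adjusted p = 0.00282). Heyl was at 48.9, 55.5 and 59.7 CPM after MI and at 34.2, 37.5 and 34.0 CPM after sham surgery. The 15 FGF genes included 5 lower and 2 higher (median -0.10), beside 24.4% lower and 29.9% higher over all genes tested. The ligand genes Fgf1 and Fgf13 fell by 0.96 ± 0.11 and 1.38 ± 0.10, and the receptor genes Fgfr1 and Fgfr2 rose by 0.98 ± 0.12 and 2.08 ± 0.34. Of 51 guidance genes 15 rose and 6 fell (median 0.18), with 9 higher when sham replicate 1 was left out. The share of rises lay near and that of falls under those of all genes tested (29.9% and 24.4%), so the guidance values are those of single members. The netrin receptor gene Unc5b rose from 19.9, 26.8 and 28.0 CPM to 90.9, 83.9 and 76.2 CPM, and netrin itself, Ntn1, fell by 0.81 ± 0.13. The ephrin receptor gene Epha4 fell by 1.66 ± 0.16 and Ephb2 rose by 2.49 ± 0.41.

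Among nuclear receptors and their ligand handling, 12 of 34 genes rose and 10 fell (median 0.10), the latter becoming 4 with library totals alone, 6 without MI replicate 1 and 5 without MI replicate 2 or sham replicate 3. Both shares lay near those of all genes tested (29.9% and 24.4%), so the values given here are those of single members. Nr3c2, the mineralocorticoid receptor, was at 5.62, 7.49 and 9.54 CPM after MI and at 22.5, 22.6 and 26.6 CPM after sham surgery (-1.66 ± 0.19, adjusted p = 1.39e-05), and the thyroid receptor gene Thrb fell by 1.10 ± 0.13 and the retinoid receptor gene Rxrg by 1.23 ± 0.11, while the vitamin D receptor gene Vdr rose by 2.24 ± 0.42. Aldh1a2, which makes retinoic acid, was at 39.4, 36.8 and 29.9 CPM after MI and at 2.26, 5.29 and 7.10 CPM after sham surgery, and Aldh1a3 rose by 2.40 ± 0.32. Both deiodinases that set local thyroid hormone were higher. Dio2, the activating form, rose by 2.14 ± 0.35, and Dio3, the inactivating form, named after its values were seen, had 0 reads over the sham and 66 over the MI libraries, at least 14-fold higher.

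Receptors that sense damage and microbes were higher after MI in most cases. Of 43 pattern receptor and inflammasome genes 35 rose and 1, Irak1, fell (median 1.93). Tlr13, a receptor of lysosomes, was at 57.3, 34.5 and 30.4 CPM after MI and at 3.20, 2.0 and 3.25 CPM after sham surgery (3.85 ± 0.32, adjusted p = 1.58e-06). Tlr2 and its co-receptor gene Cd14 rose by 2.07 ± 0.26 and 1.93 ± 0.24. Tlr4 was at 33.7, 39.7 and 30.6 CPM against 23.2, 24.6 and 20.9 CPM, with no overlap. Tlr4 was not called in the edgeR fit of all libraries (adjusted p = 0.107). It was called in a fit of the Cre-negative libraries alone (adjusted p = 0.00186) and without Cre-positive sham replicate 1 or 2 (adjusted p = 0.0131 and 0.0124). The adaptor gene Myd88 rose by 1.16 ± 0.18. The lectin receptor genes Clec4d and Clec4e, which sense dead cells and fungi, rose by 5.28 ± 0.29 and 4.63 ± 0.56, the latter from 6 reads over the sham libraries.

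Both the interleukin-1 signal and its brakes were higher. Il1b, the ligand gene, was at 3.71, 3.18 and 2.33 CPM after MI and at 0.0941, 0.299 and 0.788 CPM after sham surgery (2.95 ± 0.66, adjusted p = 0.00249). The receptor antagonist gene Il1rn was at 12.2, 9.99 and 8.27 CPM against 0.376, 0.200 and 0.690 CPM (4.56 ± 0.43, adjusted p = 4.05e-06), and the decoy receptor gene Il1r2 rose by 4.15 ± 0.79. Of the machinery that processes the cytokine, the sensor gene Nlrp3, the protease gene Casp1 and the pore gene Gsdmd rose by 2.71 ± 0.50, 2.0 ± 0.30 and 1.39 ± 0.15, and the adaptor gene Pycard did not pass the test (0.48 ± 0.36, adjusted p = 0.275, against 0.0057 in a fit of the Cre-negative libraries alone and 0.0165 without Cre-positive sham replicate 2).

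Leukocyte recruitment genes rose in 26 of 31 cases and fell in 2 (median 2.52). On the vessel side, the selectin gene Selp rose from 0.847, 2.30 and 1.58 CPM to 10.8, 13.2 and 8.07 CPM, and the adhesion genes Icam1 and Vcam1 by 1.07 ± 0.28 and 1.03 ± 0.23, while the junction genes Jam2 and Cd99l2 fell by 0.62 ± 0.18 and 0.54 ± 0.10. On the leukocyte side, the integrin genes Itgam and Itgb2 rose by 3.22 ± 0.38 and 3.26 ± 0.21. Ccr2, the receptor that brings in blood monocytes, was at 51.7, 52.8 and 56.6 CPM after MI and at 4.33, 3.59 and 5.52 CPM after sham surgery, and Cx3cr1, a receptor of resident and patrolling cells, was at 24.5, 27.5 and 32.8 CPM against 5.46, 5.39 and 3.94 CPM. The FPKM ratio of Ccr2 to Cx3cr1 was 1.80 to 2.21 after MI and 0.691 to 1.45 after sham surgery, without overlap. Neutrophil markers were present at a summed 43.9 to 102 CPM after MI and 8.56 to 23.4 CPM after sham surgery, with Ly6g, Camp, Ngp and Ltf too low to be tested, and were highest in MI replicate 2.

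Genes for the clearance of dead cells rose in 31 of 36 cases, with 1, the fatty acid and phosphatidylserine receptor gene Cd36, lower (median 1.69). The 3 receptor kinases that bind dying cells rose by different amounts: Tyro3 by 2.27 ± 0.19, Mertk by 1.45 ± 0.19 and Axl by 0.68 ± 0.14. Axl was at 232, 216 and 219 CPM after MI and 149, 125 and 142 CPM after sham surgery. Their bridging ligand gene Gas6 overlapped between groups (0.00 with TMM factors and 0.25 with library totals alone, both log2), and the other bridge gene Mfge8 rose by 0.60 ± 0.11. The scavenger receptor genes Msr1 and Marco rose by 3.42 ± 0.33 and 5.73 ± 0.88. Cd36, which heart muscle and capillaries use for fatty acids, was at 975, 859 and 870 CPM after MI and at 1935, 1640 and 1432 CPM after sham surgery (-0.89 ± 0.27, adjusted p = 0.0162), and was not called when MI replicate 2 was left out, which left 0 of the list lower (1 with all libraries by edgeR, 2 by DESeq2).

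Of 43 lysosome and autophagy genes 27 rose and 8 fell (median 0.65). Among the proteases and hydrolases that rose were Ctss, from 20.3, 22.7 and 21.0 CPM to 425, 327 and 315 CPM (4.06 ± 0.36, adjusted p = 2.39e-06), Ctsz (2.63 ± 0.16) and Acp5 (3.75 ± 0.37). The autophagy genes Ulk1 and Map1lc3a and the lysosomal regulator gene Mitf fell, by 0.64 ± 0.12, 0.73 ± 0.11 and 0.95 ± 0.13. Of 34 iron and heme genes 8 rose and 8 fell (median -0.0045), the latter 5 without MI replicate 1, so the shares of rises and falls lay under those of all genes (29.9% and 24.4%) and the values given here are those of single members. Hmox1, which breaks down heme, was at 516, 290 and 314 CPM after MI and at 10.5, 15.4 and 11.6 CPM after sham surgery (4.90 ± 0.32, adjusted p = 3.16e-07), and the metal transporter gene Slc11a1 of phagocytes rose by 2.63 ± 0.25. The heme synthesis genes Alad, Cpox, Urod and Fech fell by 0.67 to 0.88. The iron uptake receptor gene Tfrc ranged from 51.6 to 155 CPM after MI and from 68.2 to 298 CPM after sham surgery.

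**Figure D4:**
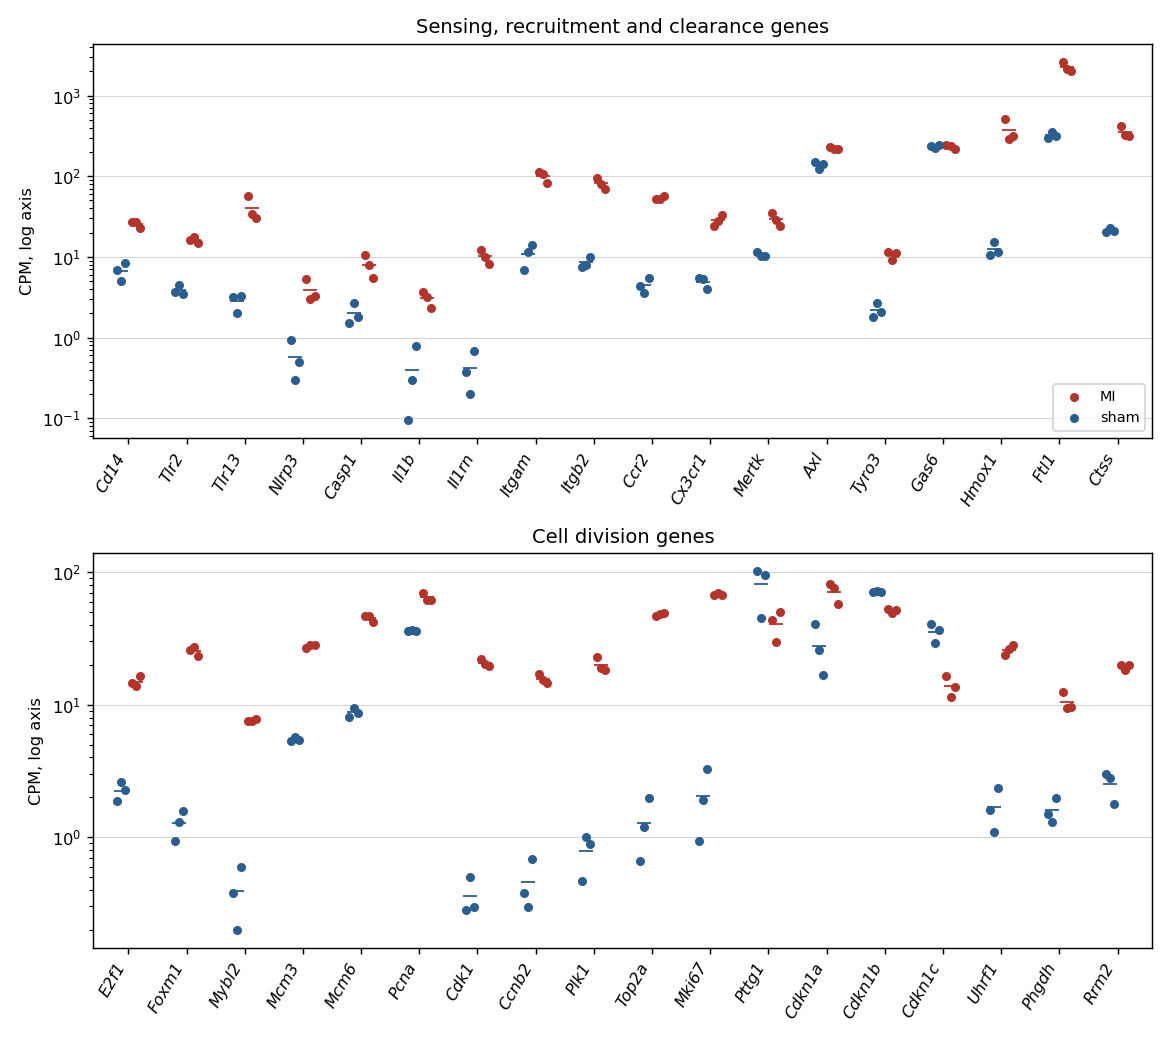
CPM on a log axis of 18 genes of sensing, recruitment and clearance (top) and 18 genes of cell division (bottom) in the 3 MI (red) and 3 sham (blue) Cre-negative libraries; each point is a library and the short line is the group mean. Most are higher in every MI library, Gas6 overlaps, and Pttg1, Cdkn1b and Cdkn1c have lower means after MI.

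Lipid mediator genes rose in 17 of 34 cases and fell in 7 (median 0.48), the latter 4 without MI replicate 3 and 3 without sham replicate 1. The inducible cyclooxygenase gene Ptgs2 was at 5.91, 8.05 and 8.54 CPM after MI and at 0.659, 1.70 and 2.27 CPM after sham surgery (2.28 ± 0.36, adjusted p = 0.000186). Of the enzymes after it, the prostacyclin and thromboxane synthase genes Ptgis and Tbxas1 rose by 1.92 ± 0.24 and 2.87 ± 0.30. The prostaglandin D synthase gene Ptgds fell, from 615, 360 and 520 CPM to 288, 282 and 153 CPM (-1.05 ± 0.32, adjusted p = 0.016). In the leukotriene branch Alox5ap and Ltc4s rose by 2.79 ± 0.22 and 1.88 ± 0.28. Purine signalling genes rose in 13 of 25 cases and fell in 5 (median 0.94), the latter 2 or 3 without any of 5 libraries, sham replicate 3 being the exception. Panx1, the channel through which dying cells release nucleotides, rose from 1.88, 1.40 and 1.87 CPM to 19.4, 16.6 and 14.3 CPM, and the receptor gene P2ry6 by 2.50 ± 0.24, while P2ry1 fell by 1.54 ± 0.23. The adenosine-forming gene Nt5e was not called (adjusted p = 0.215).

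Cell death genes rose in 21 of 39 cases and fell in 4 (median 0.47). The necroptosis chain of Ripk1, Ripk3 and Mlkl rose together, by 1.38 ± 0.13, 3.21 ± 0.25 and 2.08 ± 0.22, with Ripk3 at 19.5, 16.3 and 14.3 CPM after MI and at 1.22, 2.10 and 2.07 CPM after sham surgery. The apoptosis genes Casp8, Apaf1 and Bax rose by 1.56, 1.52 and 0.98. In ferroptosis, the lipid enzyme gene Acsl4 rose by 0.97 ± 0.14 and the protective peroxidase gene Gpx4 fell by 0.50 ± 0.10 (422, 489 and 468 CPM against 650, 636 and 670 CPM). The cystine transporter gene Slc7a11, also protective and named after its values were seen, was higher. It had 75 reads after MI and 1 after sham surgery, a ratio of 47.9 (95% exact counting interval 8.33 to 1915).

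Of 36 genes of oxidant production and defence 17 rose and 11 fell (median 0.44). The phagocyte oxidase genes Cybb, Cyba and Ncf1 rose by 2.16 ± 0.20, 1.97 ± 0.14 and 2.59 ± 0.19. Sod3, an extracellular enzyme of the vessel wall, rose by 1.57 ± 0.16, and Gpx7, an enzyme of the secretory pathway, by 2.27 ± 0.14. The mitochondrial defence genes Sod2, Prdx3 and Txnrd2 fell by 1.05 ± 0.15, 1.01 ± 0.10 and 0.83 ± 0.14. Sod2 was at 348, 488 and 463 CPM after MI and at 879, 885 and 934 CPM after sham surgery. The metallothionein genes Mt1 and Mt2 overlapped between groups (-0.24 and 0.64, and 0.00 for Mt1 with library totals alone).

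Matrix synthesis beyond the matrix proteins themselves was measured in the enzymes that fold, modify and export them. Of 36 procollagen processing genes 28 rose and the other 8 were not called (median 1.41). P4ha3, a prolyl hydroxylase subunit gene, was at 29.6, 32.4 and 29.1 CPM after MI and at 0.376, 0.200 and 1.28 CPM after sham surgery (5.60 ± 0.40, adjusted p = 5.42e-07). The collagen chaperone gene Serpinh1 rose by 2.09 ± 0.36, the cleaving proteases Bmp1 and Adamts2 by 2.04 ± 0.13 and 2.44 ± 0.19, and the cross-linkers Lox, Loxl2 and Loxl3 by 4.53 ± 0.56, 3.0 ± 0.25 and 3.60 ± 0.20. Lox was at 459, 353 and 360 CPM after MI and at 20.5, 9.48 and 20.6 CPM after sham surgery. Creb3l1, a transcription factor of secretory fibroblasts, rose by 2.67 ± 0.14.

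Glycosaminoglycan and proteoglycan genes rose in 34 of 48 cases and fell in 2, Gpc1 and Extl1 (median 1.13; 1 fell without MI replicate 1, without sham replicate 3 or with a replicate block). For hyaluronan, a hydrated polymer of young wounds, the synthase gene Has2 rose from 0.565, 0.599 and 0.788 CPM to 3.83, 3.93 and 4.00 CPM, and Cemip, which is needed to break it down, rose from 0.188, 0.399 and 0.197 CPM to 10.9, 11 and 12.1 CPM (5.39 ± 0.33, adjusted p = 1.92e-07). Versican, Vcan, which binds hyaluronan, rose by 2.58 ± 0.22, its receptor Cd44 by 2.94 ± 0.19 and the cell surface proteoglycan Sdc1 by 2.59 ± 0.16. The cartilage proteoglycan gene Acan had 139 reads after MI and 1 after sham surgery, a ratio of 88.7 (95% exact counting interval 15.7 to 3527), and of the 5 cartilage and bone markers tested Comp also rose, by 1.56 ± 0.20, while Chad, Alpl and Sost, named after their values were seen, were not called. The markers Col2a1, Col10a1, Sp7 and Bglap were too low to be tested.

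Transcription factors of fibroblast lineage and activation rose in 21 of 33 cases and fell in 3 (median 1.22). Runx1 was at 43.5, 40.9 and 42.0 CPM after MI and at 1.5, 3.69 and 4.04 CPM after sham surgery (3.78 ± 0.28, adjusted p = 6.85e-07), and Snai1, Sox9 and Meox1 rose by 2.86 ± 0.24, 2.46 ± 0.21 and 2.62 ± 0.29. Prrx1, which marks the lineage as a whole, was not called (106, 102 and 109 CPM against 85.0, 91.2 and 102 CPM, adjusted p = 0.188), but was called higher with library totals alone (0.44, adjusted p = 0.0075). Gata4 and Tead1, shared with heart muscle, fell by 0.38 ± 0.08 and 0.48 ± 0.11.

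Cell division genes rose in nearly every case. Of 48 genes of mitosis and cytokinesis 45 rose and 1, Pttg1, fell, with a median log2 fold change of 3.97, and 44 of the 45 rose at least 2-fold. Cdk1, the mitotic kinase, was at 22.3, 20.1 and 19.5 CPM after MI and at 0.282, 0.499 and 0.296 CPM after sham surgery (5.82 ± 0.31, adjusted p = 1.09e-07). Top2a, which untangles chromosomes, was at 46.5, 48.8 and 49.2 CPM against 0.659, 1.2 and 1.97 CPM, and Mki67, the proliferation marker, at 67.2, 69.4 and 67.8 CPM against 0.941, 1.90 and 3.25 CPM. Relative to their level, the MI libraries lay close together for these 3 genes, while the sham libraries, some near the level of a few reads, spread more widely. Pttg1, the securin gene, was at 43.5, 29.6 and 49.96 CPM after MI and at 102, 44.9 and 96.1 CPM after sham surgery, with MI replicate 3 above sham replicate 2.

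Promoters of these genes are known to carry CCAAT boxes, bound by NF-Y, and a cell cycle homology element with the core TTTGAA, bound by the complex that silences them in resting cells, which is why 4 of them are printed here (Ube2c was chosen after its values were seen). The 250 bases before the transcription start (RefSeq promoter table, build GRCm38.p6, gene strand) were searched on both strands for the letters CCAAT and TTTGAA, matches of which may share a letter. Of 45 promoters listed for 41 mitosis genes, 75.6% held CCAAT, against 34.9% of 13923 promoters of all tested genes. TTTGAA was held by 33.3% against 10.8%, and both by 31.1% against 3.99%. The DNA replication list came to 54.8% for CCAAT and 16.1% for TTTGAA, and the contractile, procollagen processing and energy regulator lists to 33.3%, 34.5% and 40.4% for CCAAT. The CArG box (bound by SRF), TGACTCA, TCAAGGTCA (bound by estrogen-related receptors) and TATAAA were searched as well. A CArG box was held by 13.9% of contractile promoters against 1.18% of all, and TCAAGGTCA by 0.0% of energy regulator promoters against 0.244%. Their other shares are not reported here. A match of letters is a description and not a site. In the sequences below, capitals mark CCAAT and TTTGAA on either strand, so ATTGG and TTCAAA are the same elements read from the other strand. Cdk1 lies at chr10:69352913-69353162 on the minus strand with 3 CCAAT and 2 TTTGAA matches, the nearest TTTGAA beginning 15 bases before the start. Ccnb2, the cyclin B2 gene (5.08 ± 0.25), lies at chr9:70421555-70421804 on the minus strand with 3 and 1, its TTTGAA beginning 167 bases before the start. Top2a lies at chr11:99024190-99024439 on the minus strand with 6 and 2, and Ube2c, a ubiquitin enzyme of mitotic exit, at chr2:164769679-164769928 on the plus strand with 6 and 1.
Cdk1: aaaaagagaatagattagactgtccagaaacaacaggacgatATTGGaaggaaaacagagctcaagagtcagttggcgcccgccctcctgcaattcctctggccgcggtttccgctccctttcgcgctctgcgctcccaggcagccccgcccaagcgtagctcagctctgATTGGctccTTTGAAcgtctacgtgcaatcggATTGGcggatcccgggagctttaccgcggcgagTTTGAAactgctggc
Ccnb2: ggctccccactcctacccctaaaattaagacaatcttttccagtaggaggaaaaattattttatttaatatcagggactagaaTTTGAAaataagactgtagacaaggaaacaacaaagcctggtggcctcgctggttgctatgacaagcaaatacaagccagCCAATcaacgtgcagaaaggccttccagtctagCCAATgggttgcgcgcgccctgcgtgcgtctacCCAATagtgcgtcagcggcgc
Top2a: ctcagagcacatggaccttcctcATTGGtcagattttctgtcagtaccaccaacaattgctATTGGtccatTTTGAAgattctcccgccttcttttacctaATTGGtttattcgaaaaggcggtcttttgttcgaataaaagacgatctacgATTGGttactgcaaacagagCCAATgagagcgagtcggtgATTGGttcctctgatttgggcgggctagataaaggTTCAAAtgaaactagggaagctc
Ube2c: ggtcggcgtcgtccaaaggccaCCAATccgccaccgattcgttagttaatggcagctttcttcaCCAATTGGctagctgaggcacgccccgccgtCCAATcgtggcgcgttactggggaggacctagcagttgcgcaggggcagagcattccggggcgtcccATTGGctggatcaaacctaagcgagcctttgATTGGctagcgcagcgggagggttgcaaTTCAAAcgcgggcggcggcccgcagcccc

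Upstream of mitosis, DNA replication genes rose in 23 of 33 cases and fell in 2 (median 1.08; 1 fell without MI replicate 1 or MI replicate 2). The helicase genes Mcm3, Mcm5 and Mcm6 rose by 2.33 ± 0.17, 2.85 ± 0.26 and 2.37 ± 0.13, with Mcm6 at 46.4, 46.7 and 42.1 CPM after MI and at 8.09, 9.48 and 8.67 CPM after sham surgery. Pcna, also used in repair, rose by 0.85 ± 0.11. Of 31 genes of cell cycle entry and arrest 18 rose and 5 fell (median 0.78). The activators E2f1, Foxm1 and Mybl2 rose by 2.73 ± 0.19, 4.31 ± 0.32 and 4.25 ± 0.35. Among inhibitors, Cdkn1b and Cdkn1c fell by 0.48 ± 0.11 and 1.36 ± 0.17, whereas Cdkn1a was higher in each MI library. Cdkn1a was at 81.0, 75.6 and 57.8 CPM after MI and at 40.5, 25.7 and 16.8 CPM after sham surgery. It was not called in the edgeR fit of all libraries (1.37 ± 0.70, adjusted p = 0.118). It was called in a fit of the Cre-negative libraries alone (adjusted p = 0.00146) and without Cre-positive sham replicate 2 (adjusted p = 0.000434). Of 33 chromatin factors 17 rose and 6 fell (median 0.39). Uhrf1, which copies DNA methylation after replication, rose by 3.94 ± 0.25, and the histone deacetylase genes Hdac4, Hdac5 and Hdac11 fell by 0.91 ± 0.10, 0.67 ± 0.11 and 1.24 ± 0.10.

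Among genes that supply growth, single steps moved in each direction. In serine and one-carbon metabolism 5 of 22 rose and 7 fell (median -0.02), the latter 3 without MI replicate 1 or with library totals alone and 4 without MI replicate 3 or sham replicate 3. Over all genes tested 29.9% rose and 24.4% fell. This list and the arginine and proline list below lay near these shares, so their values are those of single members. Phgdh, the first enzyme of serine synthesis, was at 12.4, 9.49 and 9.67 CPM after MI and at 1.5, 1.30 and 1.97 CPM after sham surgery (2.72 ± 0.28, adjusted p = 6.93e-06), and the mitochondrial folate enzyme gene Mthfd2 rose by 2.53 ± 0.24, while the methionine synthase gene Mtr fell by 0.82 ± 0.15. Among ATF4 targets and amino acid transporters 12 of 25 rose and 4 fell (median 0.38). The asparagine synthetase gene Asns and the transporter genes Slc7a5, Slc7a8 and Slc1a4 rose by 2.19, 1.78, 2.60 and 2.44, and the stress genes Ddit3 and Trib3 overlapped between groups (-0.06 and 0.20, and 0.19 and 0.45 with library totals alone). In arginine and proline metabolism 7 of 19 rose and 6 fell (2 with library totals alone), with the proline synthesis gene Pycr1 at 2.26 ± 0.21 and the proline breakdown gene Prodh at -1.61 ± 0.21.

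The pentose phosphate genes G6pdx, Pgd and Tkt rose by 2.10 ± 0.16, 1.47 ± 0.13 and 1.70 ± 0.23, and the nucleotide genes Rrm2 and Tk1, used in S phase, by 2.93 ± 0.21 and 3.43 ± 0.28, while the purine synthesis genes Ppat, Gart and Adsl fell by 0.63 to 0.79. Of the whole list of 30, 13 rose and 6 fell (median 0.27). In cholesterol and fatty acid synthesis 18 of 36 rose and 3 fell (median 0.53): Sqle rose by 2.01 ± 0.24 and Elovl1 by 1.51 ± 0.13, and Acacb, the muscle carboxylase that brakes fatty acid oxidation, fell by 1.32 ± 0.21. Ribosome biogenesis genes (10 of 37 higher, 6 lower) and cytosolic aminoacyl-tRNA synthetases (3 of 20 higher, 6 lower) lay near or under the background, and with library totals alone came to 22 and 9 higher. Without MI replicate 3 or sham replicate 1 the former had 6 higher, without MI replicate 2 or sham replicate 2 it had 3 lower, and the latter had 0 or 1 higher when any of the 6 Cre-negative libraries was left out.

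The ranking of called genes by log2 fold change brought up genes outside these lists. The first was Spp1, which encodes osteopontin, at 981, 854 and 879 CPM after MI and at 3.95, 2.90 and 4.63 CPM after sham surgery (7.88 ± 0.27, adjusted p = 7.38e-09). Next came Hp (haptoglobin, 6.81 ± 0.96), Chil3 (a chitinase-like protein of macrophages, 6.56 ± 0.50), the protease gene Adam8 (6.19 ± 0.27) and the collagen gene Col11a1 (6.03 ± 0.30). Arg1, Gpnmb, Cd300lf and Lgals3, all known from macrophages, rose by 5.76 to 5.97, Ccnb1, the cyclin of mitosis, by 5.47 ± 0.43 and the matrix gene Tnc by 5.24 ± 0.25. Sprr1a, a cornified envelope protein also made by stressed muscle, rose from 8.19, 5.59 and 3.75 CPM to 322, 197 and 340 CPM (5.61 ± 0.32, adjusted p = 1.40e-07), together with its neighbours Sprr2a1, Sprr2a2 and Sprr2a3 (5.51 to 5.54), near-identical copies whose reads the counting may have split. Saa3, an acute phase protein, rose by 5.57 ± 0.48 and the immunoglobulin joining chain gene Jchain by 5.65 ± 1.59, the latter at 44.1, 11.2 and 4.47 CPM after MI. The protease genes Adam12 and Mmp12 rose by 5.26 ± 0.24 and 5.24 ± 0.39. The largest falls were smaller than these rises, and the first were of genes with low levels: Inmt, a methyltransferase, was at 2.61, 0.687 and 0.600 CPM after MI and at 15.7, 5.09 and 7.98 CPM after sham surgery (-2.85 ± 0.89, adjusted p = 0.0168), a call lost without MI replicate 2 (adjusted p = 0.0601), MI replicate 3 (adjusted p = 0.0595) or sham replicate 1 (adjusted p = 0.0663). The ion channel genes Kcnv2, Cngb3, Clcn1 and Scn4b had log2 fold changes of -2.74 ± 0.37, -2.55 ± 0.30, -2.20 ± 0.43 and -2.12 ± 0.45, and the carboxylesterase gene Ces1d one of -2.52 ± 0.28. Further down the ranking, Tcea3, a muscle elongation factor, came down by 1.96 ± 0.15 and the kinase gene Wnk2 by 1.94 ± 0.13. Wnk2 was at 56.8, 51.6 and 48.6 CPM after MI and at 240, 169 and 193 CPM after sham surgery.

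Some genes varied widely within a group. Hbb-b1, an adult globin gene, was at 452, 537 and 0 CPM after MI and at 0, 0.699 and 313 CPM after sham surgery, and it shares sequence with other beta globin genes, so the split of reads among them is uncertain. Eif3j2, one of a near-identical pair, was at 50.03, 4.25 and 55.0 CPM after MI and at 102, 114 and 59.1 CPM after sham surgery. Its partner Eif3j1 was at 31.8, 84.3 and 41.8 CPM after MI and at 1.035, 1.198 and 52.5 CPM after sham surgery. Each sham library was above each MI library for Eif3j2, but the split of reads within this pair is uncertain too. All of these genes were named after their values were seen.

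The response in Cre-positive siblings shares no library with the one described. Of 13678 genes 0 (0.0%) differed in their response between genotypes by edgeR, 1116 had an unadjusted p under 0.05, and DESeq2 called 33. Of the genes called in Cre-negative hearts 73.0% were also called in Cre-positive hearts, which is 87.7% of the calls there, and 5416 of these 5418 had the same direction. The correlation of log2 fold changes across the tested genes was 0.891 (Pearson, a description, since genes are not independent replicates), with a slope of Cre positive on Cre negative of 0.885. Y-linked genes summed to over 100 CPM in 5 of 6 Cre-negative but 1 of 6 Cre-positive libraries, so the genotypes also differ in this, and with Y-linked reads as a covariate 0 genes were called and 996 had an unadjusted p under 0.05. Yap1, the gene with floxed alleles, was at 84.6, 96.4 and 94.0 CPM after MI and at 116, 115 and 114 CPM after sham surgery in Cre-negative hearts (-0.33 ± 0.09, adjusted p = 0.00751), and was not called with library totals alone (-0.08, adjusted p = 0.467). Postn, whose promoter drives the recombinase in Cre-positive mice, was at 1590, 1528 and 1729 CPM after MI and at 111, 86.8 and 62.7 CPM after sham surgery (4.22 ± 0.31, adjusted p = 6.49e-07).

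**Figure D5:**
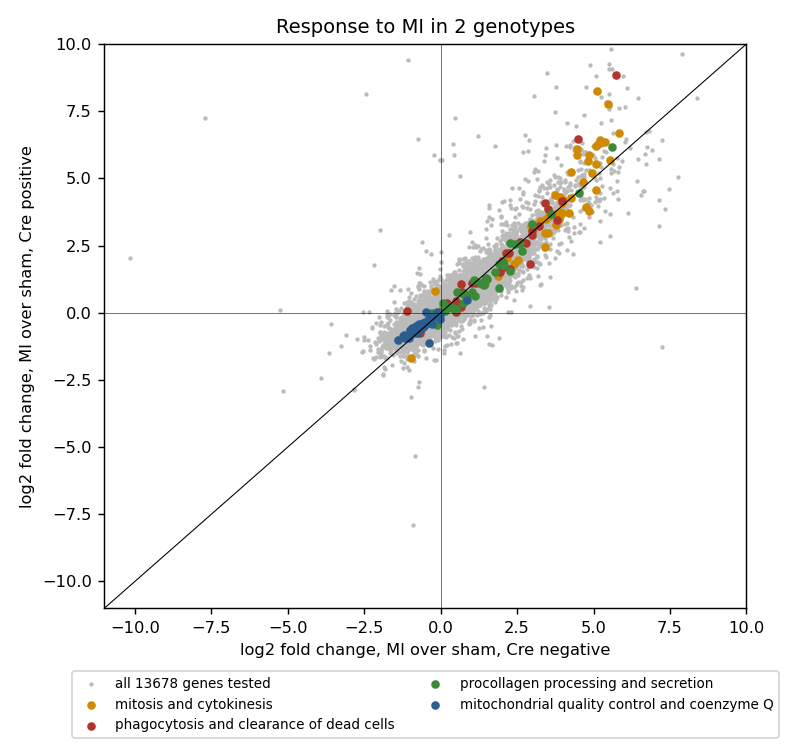
Log2 fold change of MI over sham in Cre-negative (x axis) and Cre-positive (y axis) hearts for all 13678 genes tested (grey) and 4 gene lists (colours), with the line of equal change. Most mitosis genes lie far to the upper right, and most mitochondrial quality control genes lie in the lower left quadrant.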

How the data were processed

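Left ventricles were homogenised for total RNA and sequenced, and the submitters' processing notes name Bowtie2 2.2.5, RSEM 1.2.12 and the mouse build mm10. Per the file headers the authors deposited an expected count and an FPKM value (per length and depth) for each gene and library, and genes absent from a file were taken as 0. Expected counts were rounded and tested with edgeR 4.0.16 (R 4.3.3) by the quasi-likelihood test over all 4 groups of 3 libraries, which share 1 estimate of the spread (8 residual degrees of freedom), with TMM factors. Cre-negative MI was compared with Cre-negative sham, and p-values were adjusted by Benjamini-Hochberg over the 13678 genes kept by filterByExpr (minimum count 10, 3793 genes removed). Errors of log2 fold changes are standard errors derived from the test. CPM are TMM-scaled. Intervals and floors of 3 counts cover counting error only. The fitting steps were run on simulated data in which few genes changed, as many up as down. That run could not check the scaling for data in which 54.3% of genes were called.

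Genes named are the 15 called genes with the largest gain and the 15 with the largest loss of mean FPKM, ranks 1 to 25 by log2 fold change in each direction (mean log2 CPM no lower than 1, groups not overlapping, no provisional Gm or Rik name), key members of the lists whatever they showed, and in each list up to 4 called members per direction with the smallest p, Yap1, Postn and genes whose response was called different between genotypes (0). The rule takes 646 genes. Described are 303 of these, and also Heyl, Ptgds and Slc7a11, whose alternatives are not counted. The others are not reported singly here. Exceptions are marked. The gene lists and members were chosen with earlier results of these data known. Replicate numbers were not treated as pairs: correlations of deviations from the group mean between same-numbered MI and sham libraries were 0.096, 0.0094 and 0.019. Alternatives were RLE factors, library totals, no filter, DESeq2 1.42.0, the Cre-negative libraries alone, a replicate block, Y-linked reads as a covariate, and leaving out each library. The authors' tables of the whole series were not used.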

Additional observations from a re-analysis of the deposited data

How the results depend on the processing

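With library totals in place of TMM factors 1837 genes were lower and 325 at least 2-fold lower, against 3334 and 733. Leaving out any 1 of the 12 libraries gave 3465 to 4345 genes higher, 2703 to 4015 lower, 2168 to 2399 at least 2-fold higher and 613 to 846 at least 2-fold lower. The difference between genotypes held 0 genes with every library (edgeR, 1116 at an unadjusted p under 0.05), 33 by DESeq2, 2 without a filter and 0 to 1 when a library was left out, the 1 without Cre-negative sham replicate 2. With the replicate number as a block 7370 genes were called, among them 7189 (96.8%) of the 7424 called without it, so the pairing moved no count of all genes by over 1.5 times. Of 2052 counts of list members under an alternative, 142 moved by over 1.5 times. Of 5756 log2 fold changes of named genes under an alternative, 16 reversed, all of 8 genes that were not called, and beyond the scaling or the library left out the cause was not tested. With library totals Actc1 became 0.0014, Ddit3 0.19, Gas6 0.25, Nt5e 0.0033 and Slc25a5 0.23. Gas6 was also 0.0016 in the fit of Cre-negative libraries alone and 0.0038 without a filter. Over the libraries left out Bdh1 ranged from -0.61 to 0.49 (also -0.13 without sham replicate 1), Ddit3 from -0.23 to 0.0060, Gas6 from -0.063 to 0.044, Slc25a5 from -0.090 to 0.038, Tfrc from -0.88 to 0.30 and Trib3 from -0.074 to 0.39. With library totals Cd36, Cdkn1b, Extl1, Fzd4, Gata4, Irak1, Jam2, Tead1 and Yap1 were no longer called, and Ckb, Des, Il11, Prrx1 and Tlr4 were called higher. Cd36 was also lost without MI replicate 2 (adjusted p = 0.0501) and Extl1 without MI replicate 1, sham replicate 1 or sham replicate 3 and with the block. Genes with a few reads after sham surgery are limited by depth.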
